A study of Mus musculus with 3 samples.

Results

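Neural RNA-binding proteins were followed here as 9 genes picked by symbol, out of 27998 genes listed for each library. They are the Musashi genes Msi1 and Msi2, the neuronal ELAV genes Elavl2, Elavl3 and Elavl4, the CELF gene Celf4, the RBFOX genes Rbfox1 and Rbfox2, and Qk, which encodes Quaking. The rule uses symbols and no measured value, but members and lists were chosen with earlier results of these data known. Of the 9, 8 passed the filter on low counts in the comparison of cell classes. Rbfox1 did not, and its values are given without a test. In build GRCm38 Msi1 lies at chr5:115429599-115455698 and Rbfox1 at chr16:5885355-7411526 on the plus strand. Msi2 lies at chr11:88339382-88718513, Rbfox2 at chr15:77078990-77307004 and Qk at chr17:10202601-10319854 on the minus strand, and all are annotated as protein coding. The cells came from the subventricular zone, a neurogenic niche that lines the brain's lateral ventricles, of 5 adult mice. All animals carried a tamoxifen-dependent Cre driven by the promoter of smooth muscle actin with a Rosa26 tdTomato reporter (aSMACreERt2::Rosa26-tdTomato), crossed to the Sox2-GFP line B6;129S-Sox2tm2Hoch/J, on a mixed C57/Bl6 and 129S1SvlmJ background. Cells were sorted by fluorescence and captured with 10x Chromium 3' chemistry, version 2. The groups were tdTomato-positive, GFP-positive cells (1 library, 1200 cells sorted) and tdTomato-negative, GFP-positive cells (2 libraries, 1200 and 6000 cells sorted). The dose and timing of tamoxifen were not given in the sources used here. Reporter expression marks cells that recombined under the Acta2 promoter, and GFP marks cells with Sox2 reporter activity, so each library is a sorted part of the tissue.

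Musashi proteins bind messenger RNA and modulate its translation, and in the adult brain they are known from neural stem and progenitor cells. Neuronal ELAV proteins, also called Hu proteins, bind AU-rich and U-rich elements, stabilise transcripts and shape splicing, and are classical markers of neuronal commitment. CELF and RBFOX proteins regulate alternative splicing and RNA stability in neurons, and Quaking is best known for its part in oligodendrocyte differentiation and myelination. The question that the members pose along this lineage is where the progenitor genes give way to the neuronal ones.

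After filtering, 252 cells of the tdTomato-positive library and 256 and 1121 cells of the 2 tdTomato-negative libraries were kept, 1629 in all, with medians of 2401 to 2639.5 unique molecular identifiers (UMIs) per cell. Cells were clustered without the members, and clusters were named from marker genes. The lineage classes were astrocyte-like (281 cells), transit-amplifying-like (110), dividing (128), neuroblast-like (220) and a class led by Prokr2 and Foxp2 (508). Beside them stood ependymal-like (235), oligodendrocyte precursor-like (68) and oligodendrocyte-like cells (37), and small endothelial-like (20), microglia-like (14) and mural-like (8) classes. The tdTomato-positive library held 0 transit-amplifying-like, 0 dividing and 0 neuroblast-like cells, so the lineage values after the astrocyte-like class rest on the pair of tdTomato-negative libraries. Dcx, which encodes the neuroblast protein doublecortin, had a UMI in 7.83% of astrocyte-like, 46.4% of transit-amplifying-like, 72.7% of dividing, 80.9% of neuroblast-like and 71.1% of Prokr2/Foxp2 cells. Tubb3, a neuronal tubulin gene, had a UMI in 12.8% of astrocyte-like and 77.3% of transit-amplifying-like cells. Gfap had a UMI in 25.3% of astrocyte-like cells. Of this class, 73 cells formed a cluster led by Gfap, Id3 and Thbs4, and 208 a cluster led by Slc7a10, Htra1 and Ntm. The class used as the start of the lineage is therefore mostly the latter cluster. The order of classes is taken from known lineage biology and not from a time measurement. Whether Prokr2/Foxp2 cells come after neuroblast-like cells or stand beside them was not tested. Mki67, a gene of dividing cells, had a UMI in 5.31% of Prokr2/Foxp2 and 0.909% of neuroblast-like cells. Tubb3 was 2123 CPM in Prokr2/Foxp2 and 3383 CPM in neuroblast-like cells, counted over all libraries. Barcodes also found in another library numbered 1, 2 and 3 in the tdTomato-positive, tdTomato-negative 1 and tdTomato-negative 2 libraries.

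Levels below are CPM, the UMIs of a gene scaled to the summed UMIs of a class in a library. The kit reads transcript ends, so levels are compared between classes for 1 gene and not between genes. Astrocyte-like values are given in the order tdTomato-positive, tdTomato-negative 1, tdTomato-negative 2, and later lineage classes in the order tdTomato-negative 1, tdTomato-negative 2. A test is edgeR's quasi-likelihood test on these sums with library as a block, and a gene passed at a Benjamini-Hochberg adjusted p under 0.05 over the 3848 genes tested. Values written with ± beside a log2 fold change are approximate standard errors.

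Among genes known from progenitors and glia, Msi2 and Qk fell from the astrocyte-like class to later classes, and Msi1 did not pass the test. Msi1, a translational regulator of neural stem cells, stood at 91.7, 136 and 50.9 CPM in astrocyte-like cells, at 119.9 and 71.8 CPM in transit-amplifying-like cells and at 110 and 65.8 CPM in dividing cells. It was 101 and 44.7 CPM in neuroblast-like cells and 78.2 and 48.8 CPM in Prokr2/Foxp2 cells. The ranges of all 5 classes overlap, and tdTomato-negative 1 was above tdTomato-negative 2 in 7 of 7 classes that both libraries held. The fitted change of Msi1 from astrocyte-like to neuroblast-like cells was -0.32 ± 0.41 on the log2 scale (adjusted p = 0.577), which did not pass, and the change to dividing cells was 0.11 ± 0.35 (adjusted p = 0.848), whose sign turned with the scaling.

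Msi2 stood at 673, 376 and 380 CPM in astrocyte-like cells, at 328 and 299.8 CPM in transit-amplifying-like cells and at 237 and 189 CPM in dividing cells. It was 238 and 152 CPM in neuroblast-like cells and 213 and 156 CPM in Prokr2/Foxp2 cells. Every later library value lay below every value of the astrocyte-like class as a whole. In its Gfap-led cluster alone, Msi2 was 175 CPM in tdTomato-negative 1 (4 UMIs, 13 cells) and 454 CPM in tdTomato-negative 2 (58 cells). The former lies below all later classes of the same library, so the fall from that cluster was not seen in both libraries. Msi2 was 476 ± 170 CPM (SD, n = 3) in astrocyte-like and 195 ± 60.9 CPM (SD, n = 2) in neuroblast-like cells, and it fell by 1.30 ± 0.21 on the log2 scale (adjusted p = 3.41e-09). The fall to dividing cells was -1.04 ± 0.18 (adjusted p = 7.65e-08), and the change from transit-amplifying-like to dividing cells, -0.51 ± 0.19 (adjusted p = 0.128), did not pass. Without tdTomato-negative 2 the Msi2 change to neuroblast-like cells was -0.70 (adjusted p = 0.651) and that to dividing cells -0.68 (adjusted p = 0.568). Without tdTomato-negative 1 the latter was -0.98 (adjusted p = 0.129).

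Qk stood at 826, 459.8 and 411 CPM in astrocyte-like cells and at 159.9 and 142 CPM in transit-amplifying-like cells. It was 164 and 132 CPM in dividing cells, 156 and 75.9 CPM in neuroblast-like cells and 113 and 84.5 CPM in Prokr2/Foxp2 cells. No later value reached the astrocyte-like range, and Prokr2/Foxp2 cells lay below transit-amplifying-like and dividing cells but overlapped neuroblast-like cells. The fold change from astrocyte-like to transit-amplifying-like cells was -1.80 ± 0.20 (adjusted p = 1.01e-17) and that to neuroblast-like cells -2.39 ± 0.23 (adjusted p = 2.40e-24). Without tdTomato-negative 2 they kept their sign but did not pass, at adjusted p = 0.126 and 0.139.

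The 3 neuronal ELAV genes passed together from astrocyte-like to transit-amplifying-like cells, as given next, so the bases before their annotated starts are shown. In GRCm38 (GENCODE annotation) Elavl2 lies at chr4:91250763-91400785, Elavl4 at chr4:110203722-110351909 and Elavl3 at chr9:22015005-22052023, each on the minus strand and protein coding. The RefSeq promoter entries of build GRCm38.p6 examined here covered 6 members, with 17 starts. No entry of Msi1, Celf4 or Rbfox2 was examined. The sequences are the 250 bases upstream of each ELAV start whose window touches no annotated exon of the gene, on the minus strand, read 5′ to 3′. Capitals mark matches on either strand to 5 motifs. They are the E-box CAGCTG, the homeodomain core TAATTA, the SOX core ACAAAG, the GC box GGGCGG and the TATA box TATAAA.
Elavl2, chr4:91376497-91376746: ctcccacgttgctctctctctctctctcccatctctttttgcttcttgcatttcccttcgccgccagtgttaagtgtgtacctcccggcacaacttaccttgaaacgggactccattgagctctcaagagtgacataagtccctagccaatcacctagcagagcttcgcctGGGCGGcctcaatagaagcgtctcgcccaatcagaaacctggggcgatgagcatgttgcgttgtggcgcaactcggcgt
Elavl2, chr4:91372070-91372319: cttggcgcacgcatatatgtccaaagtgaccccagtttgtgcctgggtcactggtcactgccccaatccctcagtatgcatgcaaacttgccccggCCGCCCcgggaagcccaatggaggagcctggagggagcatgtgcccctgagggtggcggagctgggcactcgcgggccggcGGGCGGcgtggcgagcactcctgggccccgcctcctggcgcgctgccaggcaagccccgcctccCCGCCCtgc
Elavl4, chr4:110351912-110352161: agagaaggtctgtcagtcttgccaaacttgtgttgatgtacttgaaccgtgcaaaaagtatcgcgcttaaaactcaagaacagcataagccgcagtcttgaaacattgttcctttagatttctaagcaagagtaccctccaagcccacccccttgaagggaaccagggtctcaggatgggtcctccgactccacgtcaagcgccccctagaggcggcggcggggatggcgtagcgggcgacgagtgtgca
Elavl4, chr4:110287528-110287777: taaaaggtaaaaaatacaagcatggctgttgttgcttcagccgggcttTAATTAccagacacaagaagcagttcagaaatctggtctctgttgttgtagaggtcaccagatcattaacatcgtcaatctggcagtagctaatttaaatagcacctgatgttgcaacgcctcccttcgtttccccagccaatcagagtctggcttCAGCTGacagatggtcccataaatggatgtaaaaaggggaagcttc
Elavl3, chr9:22052024-22052273: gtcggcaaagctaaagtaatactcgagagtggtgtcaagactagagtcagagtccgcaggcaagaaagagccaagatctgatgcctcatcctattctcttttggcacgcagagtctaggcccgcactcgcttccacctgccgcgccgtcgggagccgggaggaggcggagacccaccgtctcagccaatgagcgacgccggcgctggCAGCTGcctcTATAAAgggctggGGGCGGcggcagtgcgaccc

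The Elavl3 window, directly upstream of the gene on chromosome 9, held an E-box, a TATA box and a GC box, at 61.6% GC with 20 CpG. Of the 32851 RefSeq starts of the same window length, 13% held CAGCTG, 12.4% TATAAA, 32.7% GGGCGG, 4.84% TAATTA and 16.5% ACAAAG, with medians of 52.4% GC and 6 CpG. The inner Elavl4 start on chromosome 4 lay inside the gene and its window held TAATTA and CAGCTG at 44% GC, and the outer Elavl4 window held none of the 5 motifs. Of the Elavl2 windows the one nearer the gene's end held 3 GC boxes and the other 1. The Qk window had 84.8% GC, 52 CpG and 5 GC boxes, and the Msi2 windows had 74.4% to 75.6% GC, but these windows overlap annotated exons and their letters are not shown. A match is a description of letters and no measurement of binding, and no match says only that these letters are not in the window.

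The neuronal ELAV genes took the opposite direction. Elavl4, whose protein HuD is known from early neurons, stood at 30.6, 41.8 and 9.09 CPM in astrocyte-like cells and at 416 and 314 CPM in transit-amplifying-like cells. It was 319 and 279 CPM in dividing, 393 and 375 CPM in neuroblast-like and 321 and 333 CPM in Prokr2/Foxp2 cells. Transit-amplifying-like cells overlapped the later classes and lay far above astrocyte-like cells, with a change of 4.25 ± 0.35 (adjusted p = 3.10e-31). From dividing to neuroblast-like cells Elavl4 changed by 0.37 ± 0.18 (adjusted p = 0.169), which did not pass.

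Elavl2 stood at 0, 20.9 and 9.09 CPM in astrocyte-like cells, which together held 7 UMIs, and at 55.96 and 162 CPM in transit-amplifying-like cells. It was 176 and 177 CPM in dividing, 284 and 226 CPM in neuroblast-like and 226 and 224 CPM in Prokr2/Foxp2 cells. The transit-amplifying-like libraries were far apart, and both lay below the dividing cells, which lay below the later classes. The change from astrocyte-like to transit-amplifying-like cells was 3.41 ± 0.46 (adjusted p = 1.24e-12), and 1.48 (adjusted p = 0.601) without tdTomato-negative 2. From dividing to neuroblast-like cells it was 0.40 ± 0.21 (adjusted p = 0.220), which did not pass.

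Elavl3 stood at 0, 31.3 and 52.7 CPM in astrocyte-like cells, at 376 and 298 CPM in transit-amplifying-like cells and at 348 and 411 CPM in dividing cells. It reached 677 and 792 CPM in neuroblast-like cells and 634 and 781 CPM in Prokr2/Foxp2 cells. The classes fell into 3 levels, with astrocyte-like cells lowest, transit-amplifying-like and dividing cells overlapping each other, and neuroblast-like and Prokr2/Foxp2 cells overlapping each other above them. Elavl3 was 2.50 ± 0.28 higher on the log2 scale in transit-amplifying-like than in astrocyte-like cells (adjusted p = 4.48e-18). It rose again from dividing to neuroblast-like cells by 0.92 ± 0.15 (adjusted p = 6.85e-08). This second rise did not pass without tdTomato-negative 1 or 2, without the count filter or with stricter cell filtering, where the changes were 0.91, 0.94, 0.88 and 0.41. The change of Elavl3 from transit-amplifying-like to dividing cells, 0.41 (adjusted p = 0.235), did not pass, but it passed with stricter cell filtering (1.32, adjusted p = 4.81e-12), with clustering on the odd-digit genes (1.76, adjusted p = 0.000319) and with at least 20 cells per sum (0.60, adjusted p = 0.0214), so the step at which Elavl3 rises again depends on these choices. Exons of Elavl3 share 256 bases on the same strand with the annotated gene Gm49318, which is not among the genes counted. Reads of the 2 genes from that stretch cannot be told apart and may be counted as Elavl3. This holds in every class, those of the oligodendrocyte lineage below included.

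Among the lineage classes, Celf4 and Rbfox2 were lowest in astrocyte-like cells and highest in Prokr2/Foxp2 cells. Celf4 stood at 0, 20.9 and 40.0 CPM in astrocyte-like cells, at 72.0 and 80.8 CPM in transit-amplifying-like cells and at 127 and 267 CPM in dividing cells. It reached 494 and 757 CPM in neuroblast-like cells and 912 and 938 CPM in Prokr2/Foxp2 cells. None of the 5 ranges overlapped its neighbour, and tdTomato-negative 1 was above tdTomato-negative 2 in 0 of 7 classes. Celf4 rose from transit-amplifying-like to dividing cells by 1.63 ± 0.25 (adjusted p = 5.12e-09) and from dividing to neuroblast-like cells by 1.58 ± 0.17 (adjusted p = 1.11e-18). Neither passed without tdTomato-negative 1 or without tdTomato-negative 2, and the former also missed with DESeq2 (1.45, adjusted p = 0.180). The small change from astrocyte-like to transit-amplifying-like cells, 0.99 ± 0.39 (adjusted p = 0.0303), passed in 1 of 11 alternatives, and was -0.92 (adjusted p = 0.460) when cells were clustered on the odd-digit genes, which were otherwise held out.

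Rbfox2 stood at 0, 52.2 and 27.3 CPM in astrocyte-like cells, at 104 and 89.8 CPM in transit-amplifying-like cells and at 119 and 116 CPM in dividing cells. It reached 256 and 399 CPM in neuroblast-like cells and 456 and 582 CPM in Prokr2/Foxp2 cells. Dividing cells lay above transit-amplifying-like cells only narrowly, and the ranges of the later classes did not overlap each other or those before. The rise from dividing to neuroblast-like cells was 1.60 ± 0.21 (adjusted p = 9.87e-13), and it did not pass without tdTomato-negative 2. Rbfox1 was near the detection limit, with 6 UMIs in dividing, 6 in neuroblast-like and 8 in Prokr2/Foxp2 cells. Its highest class level, 31.6 ± 0.40 CPM (SD, n = 2), was in oligodendrocyte precursor-like cells and rests on 8 UMIs.

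**Figure D1:**
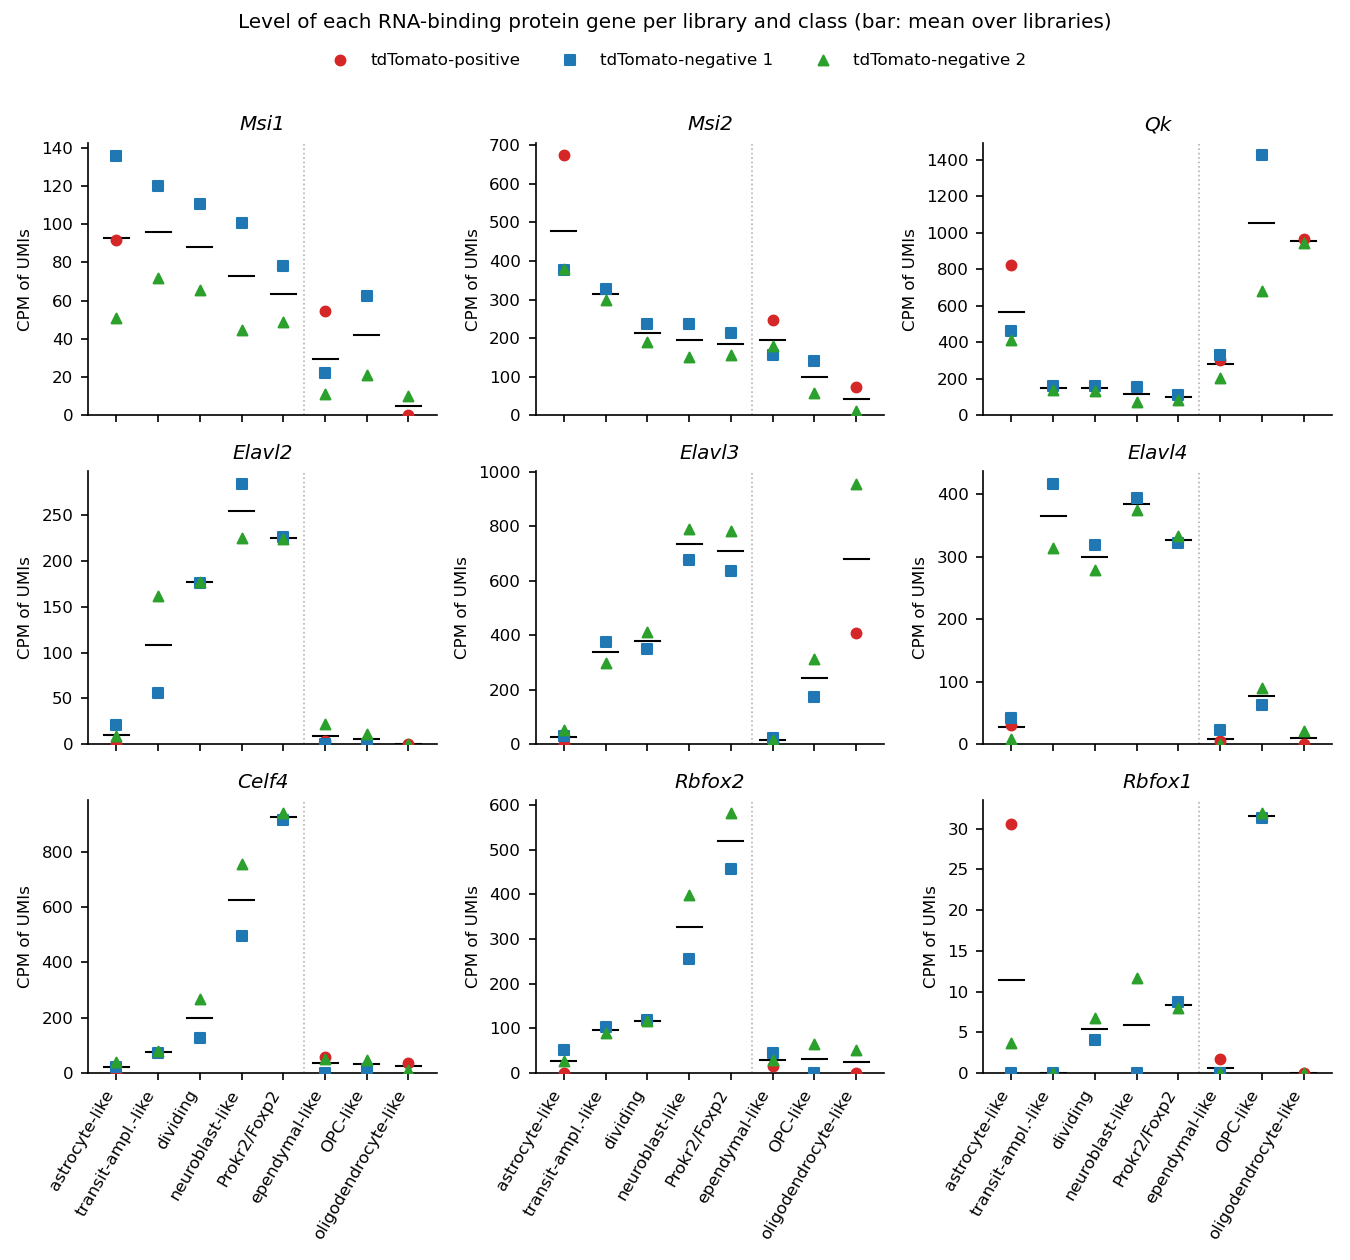
Level of each gene in CPM of UMIs (linear axes from 0) by class, with 1 point per library that held at least 10 cells of the class and a bar at the mean over libraries. Elavl4 is already near 365 CPM in transit-amplifying-like cells, Celf4 climbs to 925 CPM in Prokr2/Foxp2 cells, and Qk is highest in the oligodendrocyte lineage (OPC, oligodendrocyte precursor).

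Members were then counted at each step. Because they were chosen with earlier results of these data known, the share of all genes beside each count is a description. From astrocyte-like to transit-amplifying-like cells, 7 of the 8 tested members passed, where 38.2% of all tested genes passed. Elavl2, Elavl3, Elavl4, Celf4 and Rbfox2 were higher (18.1% of all genes) and Msi2 and Qk lower (20.1%), with Msi2 at -0.53 ± 0.18 (adjusted p = 0.0113), a call lost under 6 of 11 alternatives. The calls of Elavl4 and of Elavl2, Elavl3 and Qk were steadier, being lost under 0, 1, 1 and 1 of the 11. The call of Rbfox2, 1.38 (adjusted p = 0.00181), was lost under 4 of 11, and the change was 0.58 (adjusted p = 0.586) with odd-digit clustering and 0.99 (adjusted p = 0.629) without tdTomato-negative 2. From transit-amplifying-like to dividing cells 1 of 8 passed, Celf4, against 4.26% of all genes, 3.25% higher and 1.01% lower. Where the calls fell depended on the clustering and the cell filter. With odd-digit clustering 3 members passed at the first step and 4 from transit-amplifying-like to dividing cells, and with stricter cell filtering 6 and 5 did. From dividing to neuroblast-like cells 3 of 8 passed, Elavl3, Celf4 and Rbfox2, all higher, against 14.5% of all genes, 6.21% higher and 8.29% lower. The comparisons with transit-amplifying-like cells were added after the clusters were seen.

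From neuroblast-like to Prokr2/Foxp2 cells 2 of 8 members passed, both higher, against 1.87% of all genes, 1.07% higher and 0.806% lower. Celf4 rose by 0.62 ± 0.14 and Rbfox2 by 0.71 ± 0.17 (both adjusted p = 0.00259). In the fit without the library block the adjusted p was 0.851 for Celf4 and 0.684 for Rbfox2, and the calls were lost under 8 and 7 of 12 alternatives, with the sign kept in each. The 3 ELAV genes did not pass at this step, with mean levels of 225 ± 1.04, 708 ± 104 and 327 ± 7.92 CPM (SD, n = 2) for Elavl2, Elavl3 and Elavl4 in Prokr2/Foxp2 cells. Rbfox2 was among the 10 leading genes of the larger of the 2 clusters in this class, which is a description, although the gene was not used to cluster.

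Over the whole span, 7 of 8 members differed between neuroblast-like and astrocyte-like cells, where 38.8% of all tested genes passed, 17.8% higher and 21% lower. The changes were 4.48 ± 0.35 for Elavl4, 4.27 ± 0.41 for Elavl2, 4.19 ± 0.26 for Celf4, 3.83 ± 0.24 for Elavl3 and 3.43 ± 0.30 for Rbfox2. The median change over the 8 tested members was 3.63 and that of all tested genes -0.04. The calls of Elavl2, Elavl3, Elavl4 and Celf4 held under all 12 alternatives. Those of Msi2, Rbfox2 and Qk were lost without tdTomato-negative 2, where 4 of 8 members passed. Dividing cells against astrocyte-like cells also gave 7 of 8 (45.1% of all genes, 22.2% higher and 22.8% lower), with the same genes in the same directions. Both spans share the astrocyte-like sums with the first step and are not independent of it. With size factors of the relative log expression type the median of all genes shifted by -0.15 for dividing, -0.13 for transit-amplifying-like and -0.11 for neuroblast-like against astrocyte-like cells, and by 0.17 for oligodendrocyte-like against astrocyte-like cells. Among members that passed, only the first-step call of Celf4 was lost with that scaling.

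**Figure D2:**
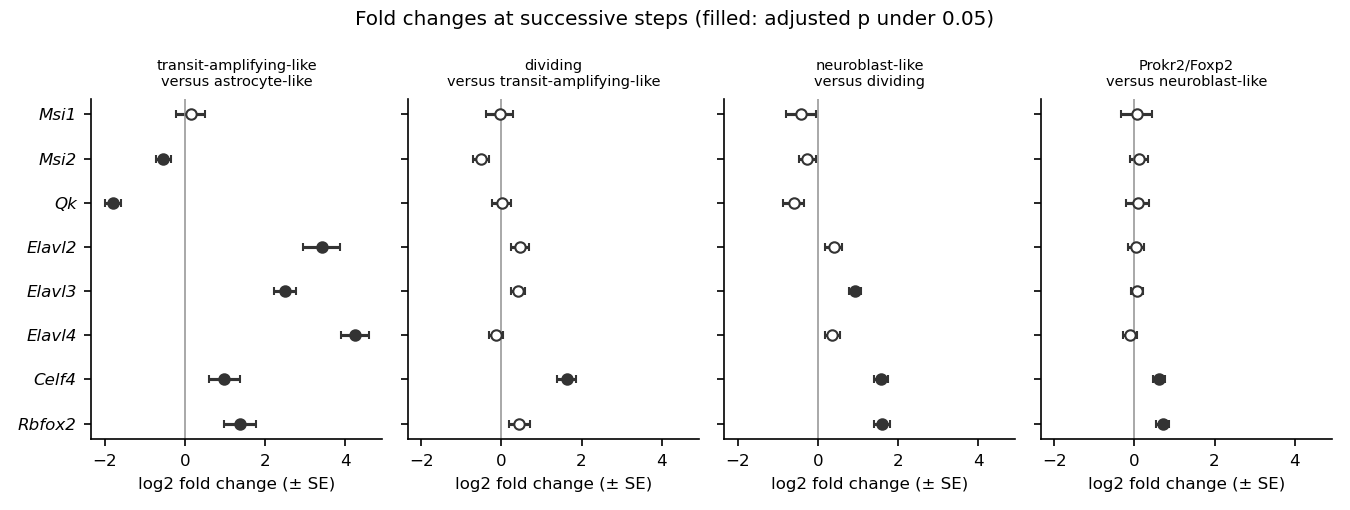
Fitted log2 fold change with its standard error for the 8 tested genes at 4 steps, in the order of classes taken here. Filled points passed at an adjusted p under 0.05. Elavl4, Elavl2 and Elavl3 move most in the first panel, Celf4 in the middle 2, and Rbfox2 from dividing to neuroblast-like cells.

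Musashi and ELAV transcripts were often found in the same cell at the intermediate classes. A UMI of Msi1 or Msi2 together with a UMI of Elavl2, Elavl3 or Elavl4 was seen in 75.5% of transit-amplifying-like (interval 66.3 to 83.2) and 75% of dividing cells (66.6 to 82.2). The share was 40.5% in neuroblast-like cells (33.9 to 47.3), 31.7% in Prokr2/Foxp2 cells (27.7 to 35.9) and 9.25% in astrocyte-like cells (6.13 to 13.3). Intervals here are exact Clopper-Pearson 95% intervals over cells and cover counting error only. Depth differed between classes, with median UMIs per cell of 5952 in transit-amplifying-like and 7084 in dividing cells against 2364 in astrocyte-like and 2706 in neuroblast-like cells.

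After every cell was thinned to 1000 UMIs the shares were 15.5% in transit-amplifying-like (9.27 to 23.6), 10.2% in dividing (5.52 to 16.7), 15.5% in neuroblast-like (10.9 to 20.9), 13.6% in Prokr2/Foxp2 and 2.60% in astrocyte-like cells (1.05 to 5.29). At equal depth the intervals of the transit-amplifying-like, dividing and neuroblast-like classes overlap one another and lie above that of the astrocyte-like class. By library (tdTomato-negative 1, then 2) the thinned shares were 5.88% and 17.2% in transit-amplifying-like, 7.41% and 10.9% in dividing and 29.0% and 13.2% in neuroblast-like cells, so the libraries did not keep the same order. Thinning kept 269 of 281 astrocyte-like cells and every transit-amplifying-like, dividing and neuroblast-like cell. Ependymal-like cells, which are not of the neuronal lineage, gave 5.11% unthinned and 0.922% thinned, with a median depth of 3620 UMIs.

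The make-up behind the shared share shifted. At 1000 UMIs, cells with a Musashi UMI only were 30.9% of astrocyte-like, 18.2% of transit-amplifying-like, 9.38% of dividing and 4.09% of neuroblast-like cells. Cells with an ELAV UMI only were 3.72%, 32.7%, 42.2% and 58.2% of the same classes. In Prokr2/Foxp2 cells Musashi-only cells were 5.61% and ELAV-only cells 51.5%, so neither share went on in the same direction past neuroblast-like cells. In thinned transit-amplifying-like cells an ELAV UMI was found in 45.9% of cells with a Musashi UMI and in 49.3% of the rest.

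**Figure D3:**
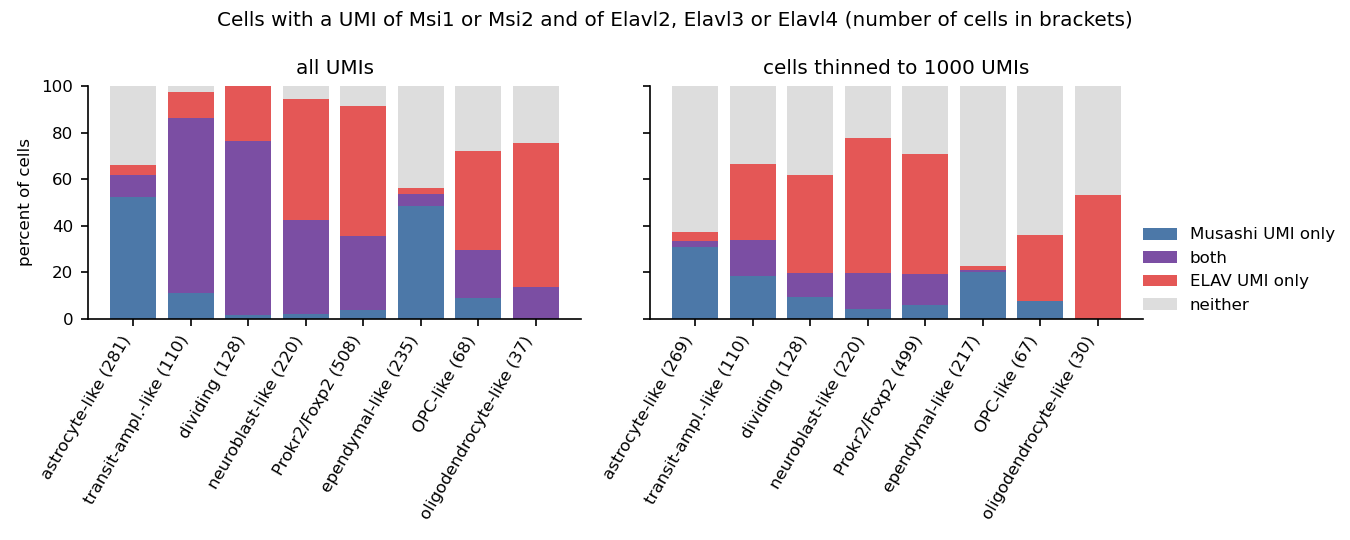
Percent of cells with a UMI of a Musashi gene only, of an ELAV gene only, of both or of neither, with all UMIs (left) and after thinning to 1000 UMIs per cell (right). The share with both falls from 75.5% to 15.5% in transit-amplifying-like cells when depth is made equal.

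More than 1 ELAV gene was often found in 1 cell. UMIs of all 3 were present in 29.1% of transit-amplifying-like, 57% of dividing, 25% of neuroblast-like and 11.8% of Prokr2/Foxp2 cells, and in 0.356% of astrocyte-like cells. At 1000 UMIs the shares with all 3 were 0%, 3.12%, 4.09% and 2.20% in those 4 classes. The lead of dividing cells in the unthinned share was not seen at equal depth, where Elavl3 alone had a UMI in 4.46% of astrocyte-like, 20.9% of transit-amplifying-like, 33.6% of dividing, 58.6% of neuroblast-like and 47.7% of Prokr2/Foxp2 cells. Endothelial-like and microglia-like cells, which should lack ELAV genes, had 0 UMIs of all 3 among 20 and 14 cells, with median depths of 1072 and 1681 UMIs, which, taking 3 cells as the limit, allows shares of cells with a UMI of up to 15% and 21.4% and does not limit the share that express the genes. All of these cells came from the tdTomato-positive library.

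Ependymal cells are the multiciliated lining of the ventricle. Ependymal-like cells held less of the progenitor genes than astrocyte-like cells and at most 22.6 CPM of any neuronal ELAV gene. Msi2 stood at 248, 156 and 181 CPM in ependymal-like cells of the tdTomato-positive, tdTomato-negative 1 and tdTomato-negative 2 libraries. All 3 lay below the astrocyte-like values, and the change was -1.23 ± 0.22 (adjusted p = 5.34e-07). Qk stood at 306, 334 and 203 CPM, with a change of -0.90 ± 0.20 (adjusted p = 4.51e-05), also below every astrocyte-like library. Msi1 stood at 54.4, 22.2 and 11.3 CPM, overlapping the lowest astrocyte-like library, with a change of -1.42 ± 0.52 (adjusted p = 0.0235). These 3 of 8 members passed, all lower, where 29.5% of all genes passed and 12% were lower. None of the 3 passed without tdTomato-negative 1 or without tdTomato-negative 2. The Msi1 call was also lost without the block, without the count filter and with Scrublet calls removed (adjusted p up to 0.451 over its alternatives), and that of Qk with Scrublet calls removed. Elavl3, at 15.3 ± 7.85 CPM (SD, n = 3), changed by -1.37 ± 0.58 (adjusted p = 0.0620), which did not pass. Celf4 stood at 56.1, 0 and 50.8 CPM and did not pass.

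Cells of the oligodendrocyte lineage had a different combination, with Qk and Elavl3 higher than in astrocyte-like cells. Oligodendrocyte-like cells held almost no other ELAV transcript, while precursor-like cells also held Elavl4, at 62.7 and 90.4 CPM (21 UMIs). Qk stood at 965 and 943 CPM in oligodendrocyte-like cells of the tdTomato-positive (14 cells) and tdTomato-negative 2 (19 cells) libraries and at 1426 and 681 CPM in oligodendrocyte precursor-like cells of tdTomato-negative 1 and 2. Oligodendrocyte-like values lay above all astrocyte-like values, and precursor-like values overlapped them. The changes from astrocyte-like cells were 0.86 ± 0.21 (adjusted p = 0.000472) and 0.57 ± 0.18 (adjusted p = 0.00802), and were lost under 4 of 12 and 6 of 13 alternatives, the fits without the block among them. The median of all tested genes was -0.43 for oligodendrocyte-like against astrocyte-like cells.

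Elavl3 stood at 408 and 954 CPM in oligodendrocyte-like cells, with 104 UMIs in the 2 libraries, and at 172 and 314 CPM in precursor-like cells. Both classes lay above every astrocyte-like value, and oligodendrocyte-like lay above precursor-like cells. Elavl3 was 4.10 ± 0.31 higher in oligodendrocyte-like than in astrocyte-like cells (adjusted p = 5.82e-38) and 2.01 ± 0.27 higher than in precursor-like cells (adjusted p = 1.82e-11). Neither call held without tdTomato-negative 2, where the changes were larger but less precise, at 5.25 (adjusted p = 0.0573) and 2.83 (adjusted p = 0.919). A UMI of Elavl3 was present in 75.7% of the 37 oligodendrocyte-like cells and in 53.3% of 30 after thinning. Unthinned, it was in 5 of 14 tdTomato-positive cells, at a median depth of 1633.5 UMIs. In tdTomato-negative 1 and 2 it was in 4 of 4 and 19 of 19 cells, at median depths of 3337.5 and 5165 UMIs.

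The other neuronal members did not follow Elavl3 there. Oligodendrocyte-like cells held 0 UMIs of Elavl2, 3 of Elavl4, 2 of Celf4 and 114 of Elavl3. Neuroblast-like cells held 147, 236, 443 and 481 UMIs of the same genes. The totals differ, with 137118 UMIs in oligodendrocyte-like and 623446 in neuroblast-like cells. Over all libraries Elavl3 was 831 CPM in the former and 772 CPM in the latter. Of the 11 neuroblast markers all 11 were detected in oligodendrocyte-like cells, at a summed 496 CPM against 12719.6 CPM in neuroblast-like and 451 CPM in astrocyte-like cells, and 7 of 13 neuron markers at 94.8 CPM. The neuroblast sum was 148 CPM in the tdTomato-positive and 523 CPM in the tdTomato-negative 2 library, the same order as Elavl3, and its part in the Elavl3 level was not tested. Precursor-like cells formed a cluster led by Pdgfra and Olig1 (51 cells) and another led by Bmp4 (17 cells), where Elavl3 was 194 and 400.4 CPM, Elavl4 140.5 and 0 CPM and Qk 535 and 1357 CPM.

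Msi2 was lower in both classes of this lineage than in astrocyte-like cells. It had 4 UMIs in the oligodendrocyte-like cells, and the ratio to astrocyte-like cells over the tested sums (3 against 267 UMIs) was -4.03 on the log2 scale, with a counting interval of -6.32 to -2.47. Msi1 had 1 UMI, with a ratio of -3.01 (interval -8.35 to -0.46). Against astrocyte-like cells 4 of 8 members passed (17.9% of all genes), Elavl3 and Qk higher (6.89%) and Msi1 and Msi2 lower (11%). The Msi1 call was lost under 5 of 12 alternatives. Of precursor-like against astrocyte-like cells 4 of 8 passed (19.3% of all genes, 8.55% higher and 10.7% lower), with Elavl3 at 2.09 ± 0.33, Elavl4 at 2.02 ± 0.58, Qk as above and Msi2 at -2.67 ± 0.31. The Elavl4 call was lost under 3 of 13 alternatives, with 0.30 (adjusted p = 0.988) without tdTomato-negative 2, 0.73 (adjusted p = 0.374) with Scrublet calls removed and 1.91 (adjusted p = 0.0508) without the count filter. Between oligodendrocyte-like and precursor-like cells 1 of 8 passed, Elavl3, against 10.5% of all genes, 5.2% higher and 5.28% lower. Both comparisons with precursor-like cells were added after the levels were seen.

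The sorted populations differed as wholes in the neuronal set. In sums over all kept cells Elavl4 was 6.94 CPM among tdTomato-positive cells and 277 and 238 CPM in the tdTomato-negative libraries, Elavl3 was 23.6 against 407 and 462 CPM, and Elavl2 4.16 against 146 and 145 CPM. Each tdTomato-positive value lay far below both others. The changes were -5.14 ± 0.53 for Elavl4, -4.16 ± 0.45 for Elavl3, -3.22 ± 0.43 for Rbfox2 and -2.73 ± 0.39 for Celf4, with adjusted p of at most 4.34e-11. The tdTomato-positive group is 1 library, so its own spread was not measured. These p-values rest on a spread between the 2 tdTomato-negative libraries that is pooled over genes, and not on the spread of each gene. The ratio for Elavl2, from 3 against 654 UMIs, was -5.12 (counting interval -7.40 to -3.57). These 5 of 8 passed, where 42.2% of all genes passed, 23.3% higher and 18.9% lower. Msi1, Msi2 and Qk changed by -0.47 ± 0.37, 0.13 ± 0.31 and 0.58 ± 0.31 (adjusted p = 0.310, 0.763 and 0.117), which did not pass. Ependymal-like cells were 70.2% of the tdTomato-positive library and 4.69% and 4.10% of the others. The tdTomato-positive library held 0 transit-amplifying-like, 0 dividing, 0 neuroblast-like and 2 Prokr2/Foxp2 cells. Prokr2/Foxp2 cells alone were 40.2% and 35.95% of the tdTomato-negative libraries. The sums therefore differ in their make-up of cells. RNA per cell within these classes could not be compared between the sorts.

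Within ependymal-like cells only Msi2 and Qk could be tested between the sorts. Msi1, not tested, had 32 UMIs in the tdTomato-positive library and 3 in the others, a log2 ratio of 2.01 (counting interval 0.33 to 4.36). In the same order Celf4 had 33 and 9 UMIs, Rbfox2 9 and 7, and Elavl3 4 and 4. Elavl2 had 2 and 4, Elavl4 3 and 1, and Rbfox1 1 and 0. Msi2 was 248 CPM in the tdTomato-positive library and 168 ± 17.7 CPM (SD, n = 2) in the others, with a change of 0.60 ± 0.29, and Qk was 306 against 269 ± 92.1 CPM, with a change of 0.46 ± 0.29. By edgeR 0 of 2 passed (both adjusted p = 0.9997), 0 were under an unadjusted p of 0.05 and 0 passed with DESeq2, where 0.0489% of all 2046 genes passed. With 1 library against 2 the fit had 1 residual degree of freedom. The size of difference it could detect was not measured, so a gene that did not pass is not shown to be equal.

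Close relatives of the members were followed by a fixed list of 7 genes, of which 4 were tested. Celf3, another neuronal CELF gene, stood at 10.4 ± 18.1 CPM (SD, n = 3) in astrocyte-like cells and 95.4 ± 33.2 CPM (SD, n = 2) in neuroblast-like cells, and rose by 3.81 ± 0.67 (adjusted p = 1.11e-07). Celf2 rose by 1.26 ± 0.18 and Celf1 by 1.04 ± 0.33 over the same span, so 3 of 4 relatives were higher and 0 lower, against 17.8% and 21% of all genes. Elavl1, the ubiquitous ELAV gene, had another course. It was 90.2 CPM in astrocyte-like, 181 CPM in transit-amplifying-like, 167 CPM in dividing and 80.6 CPM in neuroblast-like cells, and it fell from dividing to neuroblast-like cells by 0.82 ± 0.26 (adjusted p = 0.0149). Elavl3 rose at the same step.

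Of 43 other RNA regulators known in neural cells, 33 were tested. This list too was chosen with earlier results known, so its shares are descriptions. Between neuroblast-like and astrocyte-like cells 16 were higher and 5 lower, 63.6% of those tested against 38.8% of all genes, with a median change of 1.03. Srrm4, an activator of neuronal microexons, was 174 ± 39.5 CPM in neuroblast-like and 4.24 ± 7.35 CPM in astrocyte-like cells, a change of 3.95 ± 0.43. Nova2 rose by 2.69 ± 0.64, Khdrbs3 by 2.62 ± 0.53 and Khdrbs1, which encodes SAM68, by 2.06 ± 0.27. The most lowered were Zfp36l2 (-4.22 ± 0.52) and Zfp36l1 (-4.19 ± 0.41), which encode decay factors that bind AU-rich elements, Cpeb4 (-4.09 ± 0.51) and Mbnl1 (-2.19 ± 0.57), a muscleblind splicing factor.

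The same list was counted at each step. From astrocyte-like to transit-amplifying-like cells 12 of 33 were higher and 6 lower (54.5% passed, against 38.2% of all genes), led by Srrm4 (2.64 ± 0.51), Rbm3 (2.46 ± 0.21), Nova2 (2.29 ± 0.66) and Khdrbs1 (2.08 ± 0.26), with Cpeb4 (-3.91 ± 0.48), Mbnl2 (-2.33 ± 0.33), Zfp36l2 (-1.84 ± 0.36) and Igf2bp3 (-1.65 ± 0.36) lowest. From transit-amplifying-like to dividing cells 1 passed, Pcbp3 (3.03%, against 4.26% of all genes). From dividing to neuroblast-like cells 3 were higher, Srrm4 (1.91 ± 0.28), Khdrbs3 (1.27 ± 0.39) and Cirbp (0.66 ± 0.17). In the same step, where 21.2% of the list and 14.5% of all genes passed, 4 were lower, Zfp36l1 (-2.37 ± 0.51), Ptbp1 (-1.21 ± 0.40), Syncrip (-0.71 ± 0.23) and the cold-inducible gene Rbm3 (-0.49 ± 0.15). Ptbp1, a repressor of neuronal splicing, was 93.5 ± 29.7 CPM in dividing and 39.4 ± 8.96 CPM in neuroblast-like cells. Rbm3 was also the 1 gene of the list that passed between Prokr2/Foxp2 and neuroblast-like cells, at -0.69 ± 0.17 (3.03%, against 1.87% of all genes).

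**Figure D4:**
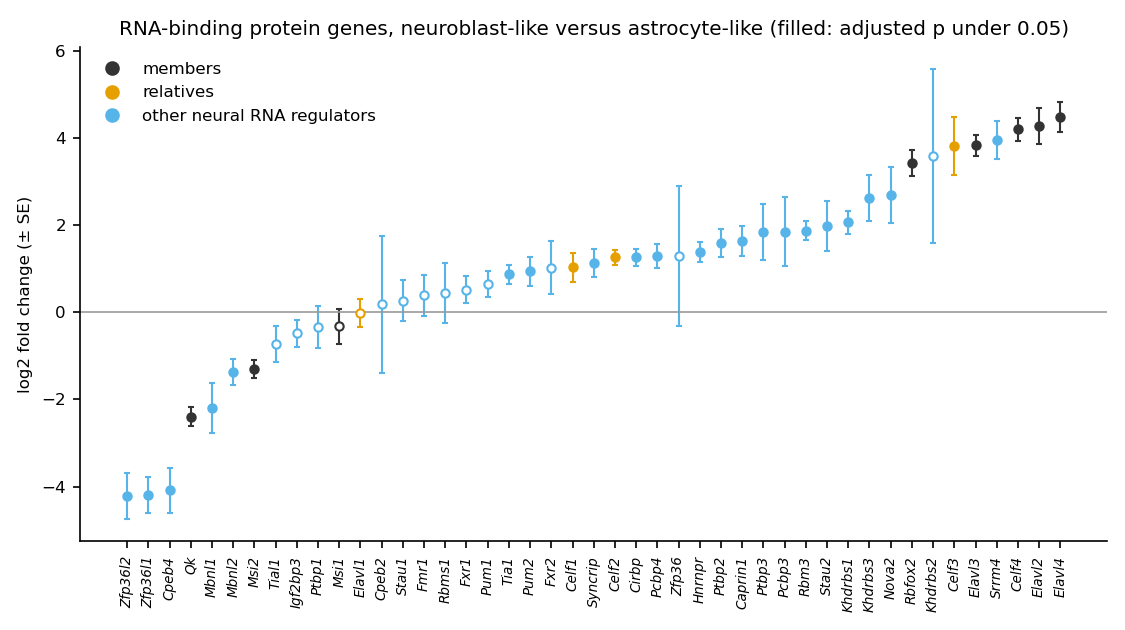
Fitted log2 fold change with its standard error between neuroblast-like and astrocyte-like cells for the tested members, relatives and other RNA regulators, in rising order. Filled points passed at an adjusted p under 0.05. The 5 neuronal members lie at the upper end beside Srrm4 and Celf3, and Qk and Msi2 lie at the lower end with Zfp36l2, Zfp36l1 and Cpeb4.

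Against astrocyte-like cells, ependymal-like cells had 2 of 33 regulators higher and 5 lower (21.2%, against 29.5% of all genes), and oligodendrocyte-like cells 2 higher and 3 lower (15.2%, against 17.9%). Zfp36l1 was 655 ± 49.7 CPM in ependymal-like cells and 228 ± 67.1 CPM in astrocyte-like cells, a rise of 1.57 ± 0.20, while Cpeb4 (-3.70 ± 0.53) and Zfp36l2 (-2.85 ± 0.46) were lower, as they were in neuroblast-like cells. Mbnl2 was 801 ± 74.1 CPM in oligodendrocyte-like cells, 2.03 ± 0.26 above astrocyte-like cells, and Pcbp4 was 2.56 ± 0.33 above them. Khdrbs2 had 29 UMIs in precursor-like cells and 0 in astrocyte-like or in oligodendrocyte-like sums.

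A further list held 6 transcripts reported elsewhere as bound by members. Gap43, a growth cone gene reported as stabilised by Elavl4, was 15.04 CPM in astrocyte-like, 45.5 CPM in transit-amplifying-like, 74.3 CPM in dividing and 176 CPM in neuroblast-like cells, and passed at each of these steps, with 0.89 ± 0.26 at the last (adjusted p = 0.00672). Mapt, which encodes tau, was 242 CPM in transit-amplifying-like, 117 CPM in dividing, 235 CPM in neuroblast-like and 508 CPM in Prokr2/Foxp2 cells. It fell at the first of these steps (-0.70 ± 0.21) and rose at the others (0.86 ± 0.21 and 1.12 ± 0.18). Mapt was also 856 CPM in oligodendrocyte-like and 650 CPM in precursor-like cells, 2.73 ± 0.25 and 1.63 ± 0.23 above astrocyte-like cells. A link between the level of Mapt and that of any member was not tested. Numb and Cdkn1a, reported Msi1 targets, were 11.2 and 7.73 CPM in astrocyte-like and 2.92 and 2.92 CPM in neuroblast-like cells and did not pass. The changes, -1.59 ± 1.09 and -1.38 ± 0.96, rest on 9 and 8 UMIs in astrocyte-like and 3 and 3 in neuroblast-like cells. Such counts are too low to tell a change from none. Cdkn1a was 135 CPM in ependymal-like cells, 3.41 ± 0.55 above astrocyte-like cells. Mbp and Mag, myelin transcripts bound by Quaking, were 8271 and 1653 CPM in oligodendrocyte-like cells. In ependymal-like cells Mbp was 348 CPM in the tdTomato-positive library and a mean of 5.65 CPM in the tdTomato-negative libraries, a change of 5.29 ± 0.52. It was the gene counted as passing between the sorts there, and whether stray RNA has a part in it was not tested. Binding was not measured here.

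Across the 20 sums of library and class, the gene most like each member by Pearson correlation of log2 CPM was Rabggtb for Msi1 (0.91), Sox2 for Msi2 (0.86), H3f3a for Elavl2 (0.96), Cfl1 for Elavl3 (0.95) and Bzw1 for Elavl4 (0.94). It was Pdlim7 for Celf4 (0.93), Tmsb10 for Rbfox2 (0.91) and Tmbim1 for Qk (0.92). The next were Metap1d, Ezr, Bcl11a, Etv1, Hdac2, Kcnc1, Fnbp1l and Reep5 in the same order. Among members the closest pair was Elavl2 and Celf4 (0.89), Elavl2 and Elavl4 stood at 0.86, and Elavl2 and Qk at -0.87. These values are descriptions over 10 classes from 3 libraries, share libraries and depth, and carry no test.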

How the data were processed

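UMI counts per gene and cell were deposited by the authors as 10x matrices for 3 libraries of sorted cells. The submitters' processing notes name Cell Ranger, STAR, Seurat 1.4.0.15 and the builds mm10 and GRCm38.p5. Cells were retained at 300 or more detected genes and no more than 25% mitochondrial UMIs. They were clustered with scanpy 1.11.5 (1000 variable genes, 20 components, 15 neighbours, Leiden resolution 1) on the genes with even Ensembl identifiers and 145 markers, without the members and RNA regulator lists, and tests used the remaining genes. UMIs were summed per library and class of at least 10 cells and tested with edgeR 4.0.16 (TMM, filterByExpr, quasi-likelihood test, Benjamini-Hochberg adjustment) in 1 fit of 20 sums with 8 residual degrees of freedom. Library was a block because classes share libraries. Whether each library is from different mice is not given in the labels. The p-values of the class fit reflect the spread between sums left after the library block, pooled over genes. That spread may be technical. It is not each gene's own spread, so a very small p-value does not measure how closely 2 or 3 libraries match for that gene. Scrublet called 9, 2 and 6 cells, which were kept. Scripts were tested on simulated data. Members and lists were chosen with earlier results of these data known. Members that passed are named in every comparison. Relatives and regulators were picked by the 4 largest changes that passed in each direction, and not all are named in each comparison. Every reported target is named at least once, and 2 similar genes are given per member. DESeq2 1.42.0 and other alternatives are given in the closing section. UMI intervals cover counting error only.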

Additional observations from a re-analysis of the deposited data

How the results depend on the processing

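The 3 libraries, 2 of them for most lineage classes, limit every test, and low counts limit Rbfox1 in all classes and the neuronal ELAV genes in glia. Over all alternatives 549 fold changes of members kept direction and side of the threshold, 86 lost the call, 10 gained it, 7 turned sign and 3 moved without a test. Msi1 between dividing and astrocyte-like cells was -0.058 with RLE scaling, -0.086 with DESeq2 and -0.20 with stricter cell filtering, and ranged from -0.13 to 0.47 leaving out libraries. Elavl3 between dividing and transit-amplifying-like cells ranged from -0.022 to 0.59 leaving out libraries. That change passed at 1.32 with stricter cell filtering, 1.76 with odd-digit clustering and 0.60 with at least 20 cells per sum. Clustering on odd-digit genes gave Msi2 0.021 and Celf4 -0.92 between transit-amplifying-like and astrocyte-like cells, with 777 genes and 3 members passing. The cause was not tested.

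For neuroblast-like against dividing cells 558 genes passed, and 235 with DESeq2, 335 without the count filter, 299 without the replicate block and 253 with stricter cell filtering. For Prokr2/Foxp2 against neuroblast-like cells 72 passed, and 16 with DESeq2, 15 without the count filter, 21 without the replicate block, 142 with stricter filtering, 35 with odd-digit clustering and 32 with Scrublet calls removed. Members passing there were 0 with DESeq2, without the filter, without the block, with odd-digit clustering and with Scrublet calls removed, and 1 at resolution 2. For dividing against transit-amplifying-like cells 164 passed, and 37 with DESeq2, 85 without the filter, 68 without the block, 339 with stricter filtering and 101 at resolution 2, with 0 members by DESeq2, 2 with at least 20 cells per sum, 5 with stricter filtering and 4 with odd-digit clustering. DESeq2 gave 421 genes for oligodendrocyte-like against astrocyte-like cells, 441 for precursor-like against astrocyte-like cells, 212 for oligodendrocyte-like against precursor-like cells and 957 for the sorts over all cells. Without the filter 2 members passed for precursor-like against astrocyte-like cells. The ependymal-like sort comparison gave 6 genes with RLE scaling, 0 with DESeq2, 9 without the filter, 3 with odd-digit clustering and 7 with Scrublet calls removed, against 1.

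Leaving out 1 library gave 331 to 1773 genes and 4 to 7 members for dividing against astrocyte-like, 15 to 670 and 0 to 3 for neuroblast-like against dividing, 0 to 92 and 0 to 2 for Prokr2/Foxp2 against neuroblast-like, and 228 to 1519 and 4 to 7 for neuroblast-like against astrocyte-like cells. It gave 260 to 1100 and 0 to 4 for ependymal-like, 41 to 592 and 0 to 3 for oligodendrocyte-like, 83 to 797 and 0 to 5 for precursor-like and 181 to 1513 and 2 to 6 for transit-amplifying-like against astrocyte-like cells. It gave 1 to 213 and 0 to 1 for dividing against transit-amplifying-like and 4 to 377 and 0 to 1 for oligodendrocyte-like against precursor-like cells. At resolution 0.5 neuroblast-like and Prokr2/Foxp2 cells fell into 1 unnamed cluster of 725 cells and no transit-amplifying-like cluster was named, and none was named with Scrublet calls removed, so these comparisons gave no value there. Joining dividing and transit-amplifying-like cells was chosen after seeing the data, as were the 4 comparisons with transit-amplifying-like or precursor-like cells.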
